A study of Mus musculus with 2 samples.

Results

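Transcripts of the islet hormones and their secretory granules were examined in immune cells sorted from the pancreas of NOD mice. The 9 genes Ins1, Ins2, Gcg, Iapp, Sst, Ppy, Chga, Chgb and Pcsk2 were taken by symbol from the gene tables of both libraries, and all 9 were found among the 27998 genes listed. The question was whether their reads lay evenly under every immune cell class or were enriched in macrophages and dendritic cells, and which barcodes looked like islet endocrine cells themselves.

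The cells came from female mice of the NOD/ShiLtJ strain, in which autoimmune diabetes arises without treatment. CD45.1+ cells (the leukocyte surface antigen Ptprc in the form this strain carries) were sorted by flow cytometry from pancreas at 7 weeks of age for 1 library and at 12 weeks for the other, and captured with 10x Genomics Chromium 3' chemistry. Both groups share strain, sex, tissue and sort, and no other genotype, agent or treatment is given in the labels. The number of mice behind each library was not stated in the labels used, so age cannot be told apart from library, mouse or preparation, and no test between the ages was possible.

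Endocrine islet cells store peptide hormones in dense-core granules and release them by exocytosis. Beta cells make insulin and islet amyloid polypeptide, alpha cells glucagon, delta cells somatostatin and PP cells pancreatic polypeptide. Each hormone is cut from a prohormone by convertases such as the product of Pcsk2, in granules packed with the granins encoded by Chga and Chgb. In the NOD strain insulin and chromogranin A are known autoantigens, and islet macrophages are known to take up insulin granules from beta cells. Lymphocytes do not transcribe these genes, so the level under lymphocyte barcodes served as the background for the other classes.

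The mouse carries a pair of insulin genes, and because their coding sequences are so alike their reads need care. The last 36 codons (108 bases), from the C-peptide through the A chain to the stop codon, are shown for both, 5′ to 3′ on the coding strand, with the differing bases in capitals. They were read from the GENCODE transcript of each gene on GRCm38, at chr19:52264843-52264950 on the plus strand and chr7:142678713-142678820 on the minus strand.
Ins1: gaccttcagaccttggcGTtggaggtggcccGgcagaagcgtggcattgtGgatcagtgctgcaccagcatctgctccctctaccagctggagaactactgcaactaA
Ins2: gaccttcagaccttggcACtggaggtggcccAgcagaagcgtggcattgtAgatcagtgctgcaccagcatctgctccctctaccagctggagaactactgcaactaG
The stretches differ at 5 bases (95.4% identical), and 56 bases in a row are shared. A read that fell inside that run could be given to neither gene with certainty, so values of Ins1 and Ins2 are also given summed. On the same build Gcg lies at chr2:62474530-62483650, Iapp at chr6:142298423-142303961, Sst at chr16:23889573-23890958, Ppy at chr11:102099930-102101319, Chga at chr12:102554969-102565028, Chgb at chr2:132781278-132795079 and Pcsk2 at chr2:143546156-143816285.

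The libraries held 1113 barcodes with 8701184 UMIs (unique molecular identifiers, each standing for 1 captured RNA molecule) at 7 weeks and 2812 with 19288252 at 12 weeks, with medians of 5643 and 4960.5 UMIs per barcode. They shared 2 cell barcodes. After filters 1107 and 2782 barcodes were analysed, of which 1 and 5 were endocrine-like and 1 and 12 had over 2% of acinar, stromal or erythroid UMIs. The remaining 1105 and 2765 are called immune barcodes here. At 12 weeks they still included the 7 barcodes of the cluster led by Myct1 and Mmrn2, where few held a Ptprc UMI. The sorted antigen was found as labelled: a Ptprc UMI was present in 82.8% to 97.7% of cells of the named lymphocyte clusters, in 95.9% of cDC2-like, 98.8% of pDC-like and 97.0% of macrophage-like cells. It was lower in the clusters led by Stab2 and Arg1 (58.7%), by Loxl1 and Hba-a1 (45.0%), which holds the endocrine-like barcodes, and by Myct1 and Mmrn2 (14.3%). Levels are UMIs of a gene per 10000 UMIs of a class, summed over its cells. Intervals are exact 95% intervals (Poisson for a level, conditional binomial for a ratio, Clopper-Pearson for a share) that cover counting error only. UMIs were taken as independent of each other, and differences among cells or mice are not part of the intervals.

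Cells were clustered without the listed islet and acinar genes, and classes were named from markers among the leading genes of each cluster. The ranking of leading genes covered all genes, and Pcsk2 was among those of the cluster led by Loxl1 and Hba-a1. The lymphocyte classes were B-like, CD4 T-like, CD8 T-like, regulatory T-like and innate lymphocyte-like cells with 4 unnamed T cell clusters, 958 cells at 7 weeks and 2410 at 12 weeks. The other classes compared were macrophage-like cells (20 and 47, led by Trem2, C1qa, C1qb and C1qc), cDC2-like dendritic cells (60 and 162) and pDC-like cells (30 and 53, with Siglech in all of them). The name cDC2-like rests on Ppp1r14a, Ffar2 and Nccrp1, which came from earlier results of these data. Of the type's other markers Sirpa was detected in 79.3%, Itgax in 74.3%, Flt3 in 72.1% and Cd209a in 22.1% of those cells.

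Nearly all hormone and granule UMIs lay in a handful of endocrine-like barcodes. The 9 genes had 6335 UMIs in the whole 7 week library and 61064 in the 12 week library. Of these, 94.7% lay in 1 endocrine-like barcode at 7 weeks and 95.1% in 5 such barcodes at 12 weeks. The immune barcodes held 324 and 2913. All further levels by class leave the endocrine-like barcodes out.

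In the lymphocyte classes the insulin transcripts, the product of beta cells, were higher in the 12 week library. Ins1 was at 0.0310 UMIs per 10000 at 7 weeks (21 UMIs, interval 0.0192 to 0.0474) and 0.148 at 12 weeks (218 UMIs, 0.129 to 0.168), a ratio of 4.76 (3.03 to 7.84). Ins2 was at 0.0355 (24 UMIs) and 0.407 (601 UMIs), a ratio of 11.5 (7.64 to 18.0). The intervals of the levels did not overlap for either gene. A UMI of Ins2 was present in 19 of 958 lymphocytes (1.98%) at 7 weeks and 481 of 2410 at 12 weeks. Summed, the insulin genes stood at 0.0665 and 0.554, 8.34 times as high at 12 weeks (6.17 to 11.5).

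Gcg, which encodes proglucagon in alpha cells, had the highest 12 week ratio of the 6 genes with at least 30 UMIs. Its level in the lymphocyte classes was 0.0443 at 7 weeks (30 UMIs, interval 0.0299 to 0.0633) and 0.676 at 12 weeks (999 UMIs, 0.635 to 0.719), 15.3 times as high (10.6 to 22.7). It was found in 22 of 958 cells (2.30%) and in 745 of 2410 (30.9%). The interval of this ratio overlapped that of Ins2, so an order between the 2 genes cannot be read from it.

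The remaining hormones did not follow the same course. Iapp, which encodes the amylin that beta cells secrete with insulin, was at 0.0458 (31 UMIs) and 0.0880 (130 UMIs), a ratio of 1.92 (1.29 to 2.94), with levels that did not overlap. Sst, the somatostatin of delta cells, was lower at 12 weeks: 0.121 (82 UMIs) at 7 weeks and 0.0663 (98 UMIs) at 12 weeks, a ratio of 0.548 (0.404 to 0.743). The same CD4 T-like barcode held 48 of those 98 Sst UMIs, and without the cell with most Sst in each library the ratio was 0.289 (0.199 to 0.417). At 7 weeks its UMIs were spread over more cells, with one in 75 of 958 lymphocytes (7.83%) against 49 of 2410 (2.03%) at 12 weeks. Ppy, which encodes pancreatic polypeptide, had 4 and 2 UMIs, too few for a ratio.

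Few UMIs of the granule genes were found in lymphocytes. Chga, which encodes the granin chromogranin A, had 3 UMIs at 7 weeks and 33 at 12 weeks in the lymphocyte classes, levels of 0.00443 and 0.0223 with a ratio of 5.04 (1.58 to 25.7). Chgb, the granin chromogranin B, had 4 and 1. Pcsk2, the prohormone convertase that processes proglucagon and proinsulin, had 0 UMIs at 7 weeks, which allows a level of up to 0.00443, and 7 at 12 weeks (0.00474). At these counts no difference was detectable for Chgb and Pcsk2.

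**Figure D1:**
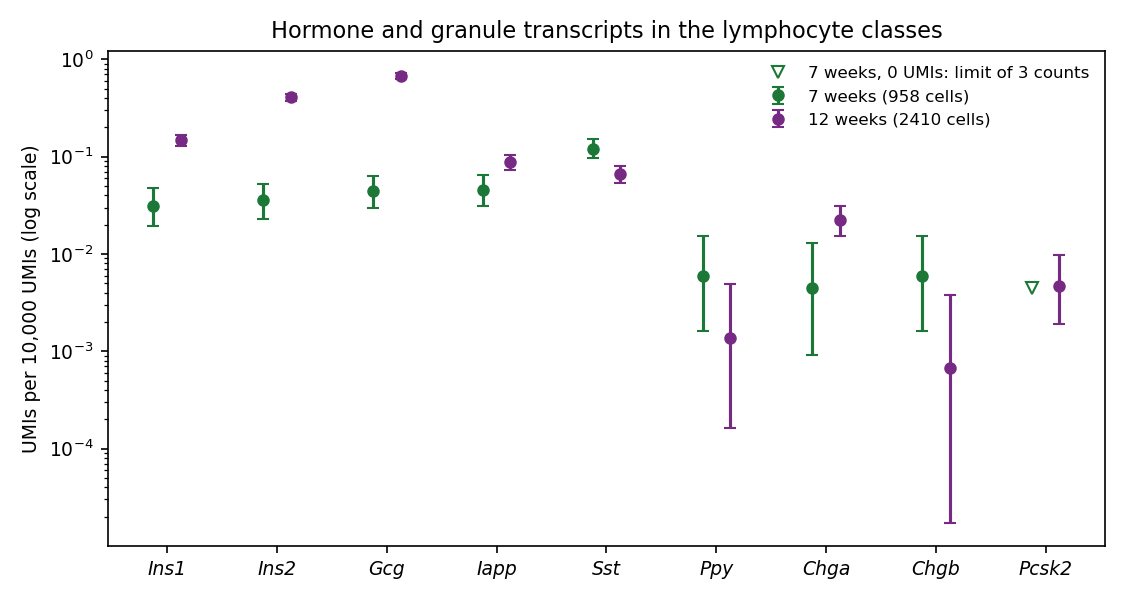
Level of each of the 9 genes in the lymphocyte classes, in UMIs per 10000 UMIs on a log axis, at 7 weeks (green, 958 cells) and 12 weeks (purple, 2410 cells). Bars are exact 95% Poisson intervals and the open triangle marks 0 UMIs at the limit that 3 counts allow; Ins1, Ins2, Gcg, Iapp and Chga lie higher at 12 weeks with intervals apart, and Sst lies lower.

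Set against all genes, 6 of the 9 had at least 30 UMIs in the lymphocyte sums of both libraries together and could be counted. Of these 6, Ins1, Ins2, Gcg and Chga were at least 2-fold higher at 12 weeks, where 1.3% of 10614 genes were, and 0 were at least 2-fold lower, where 3.22% were. Their median log2 ratio was 2.18, against -0.00 over all genes with as many UMIs. The sum of the 9 genes was 0.294 at 7 weeks (199 UMIs, interval 0.255 to 0.338) and 1.41 at 12 weeks (2089 UMIs, 1.35 to 1.48), 4.81 times as high (4.16 to 5.59).

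Within each library UMIs of the 9 genes were found in every lymphocyte class, and macrophage-like cells lay above all of those with 30 or more cells. The gap between their interval and that of regulatory T-like cells rested on 1 macrophage-like barcode in each library. At 7 weeks the 8 lymphocyte classes with 30 or more cells ran from 0.193 in B-like (0.116 to 0.301) to 0.518 in regulatory T-like cells (0.365 to 0.714). At 12 weeks they ran from 1.15 in innate lymphocyte-like (0.848 to 1.52) to 1.68 in regulatory T-like cells (1.46 to 1.93). The highest was 2.68 times the lowest at 7 weeks and 1.47 times at 12 weeks. CD4 T-like cells had 0.326 and 1.63, and CD8 T-like cells 0.367 and 1.32. Plasma cell-like cells had 1.81 at 12 weeks (1.46 to 2.21). Most neighbours in this order overlapped in their intervals, but regulatory T-like cells lay above B-like cells in both libraries without overlap.

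The cDC2-like cells had 0.536 at 7 weeks (0.391 to 0.717) and 2.08 at 12 weeks (1.88 to 2.30), with intervals that overlapped those of regulatory T-like cells in both libraries. The pDC-like cells had 0.792 (0.497 to 1.20), overlapping regulatory T-like cells, and 2.45 (2.0 to 2.97), above them. Next came macrophage-like cells with 1.97 (1.42 to 2.67) and 2.63 (2.22 to 3.10). The pDC-like and macrophage-like intervals overlapped at 12 weeks and lay apart at 7 weeks. From 7 to 12 weeks the sum was 3.25 to 7.31 times as high in each lymphocyte, plasma cell-like or unnamed class with enough UMIs, 3.89 times in cDC2-like and 3.09 times in pDC-like cells, and 1.33 times (0.939 to 1.93) in macrophage-like cells. Without the top cell of each class the macrophage-like ratio was 2.01 (1.21 to 3.53).

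**Figure D2:**
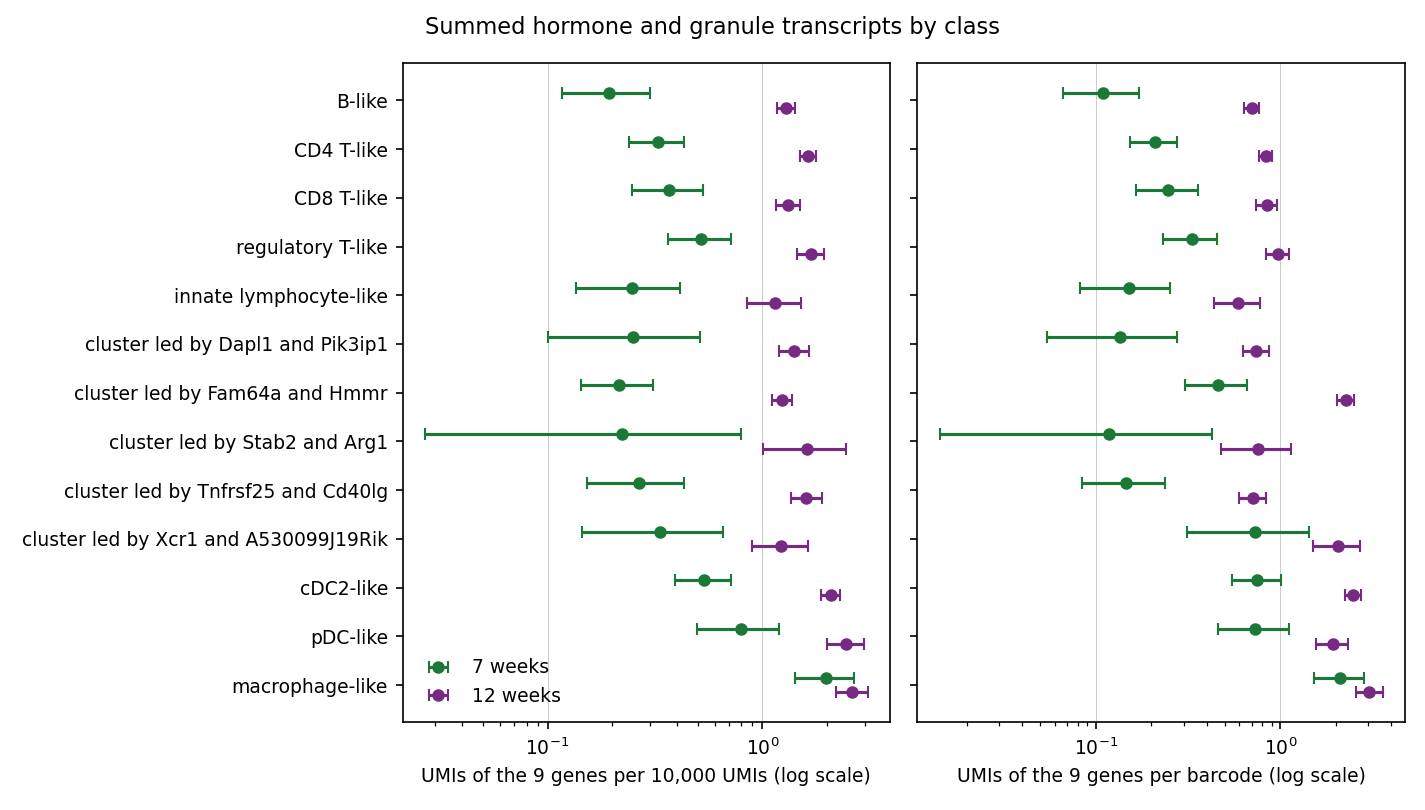
Summed UMIs of the 9 genes in each class with 10 or more cells in both libraries, per 10000 UMIs (left) and per barcode (right), on log axes; bars are exact 95% Poisson intervals. Purple points (12 weeks) lie right of green ones (7 weeks), and on the left macrophage-like cells are highest in both, at 1.97 and 2.63.

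Macrophages are the phagocytes of the islet. At 12 weeks they held more insulin and Iapp transcripts per 10000 UMIs than lymphocytes did, while the interval of their Gcg ratio included 1. Summed over the 9 genes, macrophage-like cells held 6.71 times the lymphocyte level at 7 weeks (42 UMIs in 20 cells, interval 4.69 to 9.40) and 1.86 times at 12 weeks (143 UMIs in 47 cells, 1.56 to 2.20). In each library 1 barcode carried much of it, 24 of 42 UMIs at 7 weeks and 44 of 143 at 12 weeks. Without the top cell of each class the ratios were 3.23 (1.88 to 5.25) and 1.34 (1.08 to 1.64). With classes set by marker gates in place of clusters the 12 week ratio was 1.22 (0.960 to 1.53), an interval that includes 1.

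By gene, macrophage-like cells at 12 weeks had Ins2 at 1.32 (72 UMIs) against 0.407 in lymphocytes, a ratio of 3.26 (2.51 to 4.16) and of 2.04 (1.46 to 2.77) without the cell of each class with most Ins2. Ins1 was 2.87 times as high (1.78 to 4.41), but 1.55 (0.788 to 2.77) without the top cells. Iapp was 2.93 times as high (14 UMIs, 1.56 to 5.09), with no more than 2 UMIs in any one cell. Gcg, by contrast, stood at 0.570 (31 UMIs) against 0.676, a ratio of 0.843 (0.570 to 1.20). Sst had 2 UMIs.

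At 7 weeks the macrophage-like counts were small: 6 UMIs of Ins1, 8 of Ins2, 8 of Iapp, 19 of Sst and 1 of Gcg. Ins2 was at 0.376 against 0.0355, a ratio of 10.6 (4.12 to 24.4), and Sst at 0.893 against 0.121, a ratio of 7.37 (4.22 to 12.3). The top barcode held 13 of the 19 Sst UMIs, and the Sst ratio without that barcode was 2.51 (0.896 to 5.71). Gcg had a ratio of 1.06 (0.0260 to 6.38). Of the 4 genes with at least 30 UMIs at 7 weeks, Ins2, Iapp and Sst were at least 2-fold higher in macrophage-like cells, as were 12.7% of 9112 genes, and 0 were lower, as were 30.2%. At 12 weeks Ins1, Ins2 and Iapp of 6 were, against a background of 13.5%. Chga of those 6 counted as lower, against a background of 30.2%, with 0 UMIs in macrophage-like cells. That count allows up to 0.0552, above the lymphocyte level of 0.0223, so no difference was detectable. Macrophage-like and lymphocyte cells differ in many genes, so the counts of these genes are to be read beside those shares.

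Dendritic cells carry antigen to T cells, and their excess over lymphocytes differed by class. In cDC2-like cells the sum was 1.82 times the lymphocyte level at 7 weeks (1.29 to 2.53) and 1.47 times at 12 weeks (1.32 to 1.64). Without the 6 cDC2-like and 7 lymphocyte barcodes that held 10 or more UMIs of the 9 genes at 12 weeks, it was 1.01 (0.882 to 1.16). Ins2 was 6.72 times as high at 7 weeks (20 UMIs, 3.52 to 12.7) and 1.58 times at 12 weeks (124 UMIs, 1.29 to 1.92), or 0.971 (0.745 to 1.25) without those barcodes. Gcg was 0.269 times the lymphocyte level at 7 weeks (1 UMI, 0.00658 to 1.62) and 1.39 times at 12 weeks (181 UMIs). A single cDC2-like barcode held 71 of these 181, and without the top cells the Gcg ratio was 0.863 (0.702 to 1.05).

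The pDC-like cells, plasmacytoid dendritic cells by their markers, had no barcode with 10 or more of these UMIs. Their sum was 2.70 times the lymphocyte level at 7 weeks (1.65 to 4.20) and 1.73 times at 12 weeks (1.41 to 2.11). Ins2 was at 0.360 (10 UMIs) and 1.06 (44 UMIs), ratios of 10.2 (4.34 to 22.0) and 2.60 (1.87 to 3.53). Gcg had 0 and 34 UMIs, with a ratio of 1.21 (0.831 to 1.70) at 12 weeks. Leaving out the top cell of each class left their Ins2 ratios at 9.45 and 2.28. Without barcodes of 10 or more UMIs of the 9 genes the pDC-like sum at 12 weeks was 1.85 times the lymphocyte level (1.5 to 2.26) and the macrophage-like sum 1.39 times (1.12 to 1.70), with intervals that overlapped. In the cluster led by Xcr1, a marker of cDC1 dendritic cells, the sum was 1.14 times the lymphocyte level at 7 weeks (0.485 to 2.29) and 0.865 times at 12 weeks (0.633 to 1.15), both with intervals that include 1.

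In cDC2-like cells 1 of 4 genes with at least 30 UMIs at 7 weeks (Ins2) was 2-fold higher, beside 11.2% of all genes. There 2 (Gcg and Iapp, with 1 UMI each in these cells) were lower, beside 15.9%, with intervals of the ratio that include 1. At 12 weeks 1 of 6 (Ins1) was higher, beside 13.6%, and 0 were lower, beside 15.2%. In pDC-like cells 1 of 4 (Ins2) was higher at 7 weeks, beside 14.9%. Gcg counted as lower, beside 19.9%, with 0 UMIs, a count that allows up to 0.108 and so a level above the 0.0443 of lymphocytes. At 12 weeks Ins1 and Ins2 of 6 were higher, beside 16.9%, and 0 were lower, beside 21.6%.

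If Ins1, Ins2 and Gcg are captured in the same way in every class, which was not checked, the insulin share of their summed UMIs compares the mixture between classes. Whether it moves with depth was not tested. In 12 week lymphocytes split into 4 equal groups by depth, the shallowest held 108 UMIs of Ins2 and 165 of Gcg. The next groups held 117 and 205, then 134 and 188, and the deepest 242 and 441. UMIs of this 3' chemistry are not divided by gene length, and the share is not a comparison of expression between the genes. At 12 weeks insulin made up 45.0% of the lymphocyte total (819 insulin and 999 Gcg UMIs, 42.7% to 47.4%) and 45.3% in B-like cells (40.4% to 50.3%). It was 75.4% in macrophage-like cells (66.9% to 82.6%) and 64.2% in pDC-like cells (53.7% to 73.8%), both without overlap with the lymphocytes. Without barcodes of 10 or more of the 9 genes' UMIs the macrophage-like share was 66.7% (55.5% to 76.6%), still above. The cDC2-like share was 50.3% (45.0% to 55.5%), overlapping that of lymphocytes.

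Lower shares were found in regulatory T-like cells, at 34.8% (27.9% to 42.3%), and in plasma cell-like cells, at 32.1% (22.4% to 43.2%), where the second interval just overlaps that of all lymphocytes. These classes also had the highest Gcg levels among classes with 30 or more cells, 0.985 (0.814 to 1.18) and 1.10 (0.831 to 1.42). The macrophage-like Gcg level of 0.570 lay near the low end of the same range. The cluster led by the cell cycle genes Fam64a and Hmmr had 38.0% (32.4% to 43.9%), and 42.5% without its 3 barcodes with 10 or more UMIs.

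At 7 weeks the counts behind this share were small. Insulin made up 60.0% in lymphocytes (45 of 75 UMIs, 48.0% to 71.1%), 93.3% in macrophage-like (14 of 15), 96.3% in cDC2-like (26 of 27, 81.0% to 99.9%) and 100% in pDC-like cells (15 of 15, 78.2% to 100%). The dendritic intervals lay above that of the lymphocytes, and the macrophage-like one, 68.1% to 99.8%, overlapped it.

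**Figure D3:**
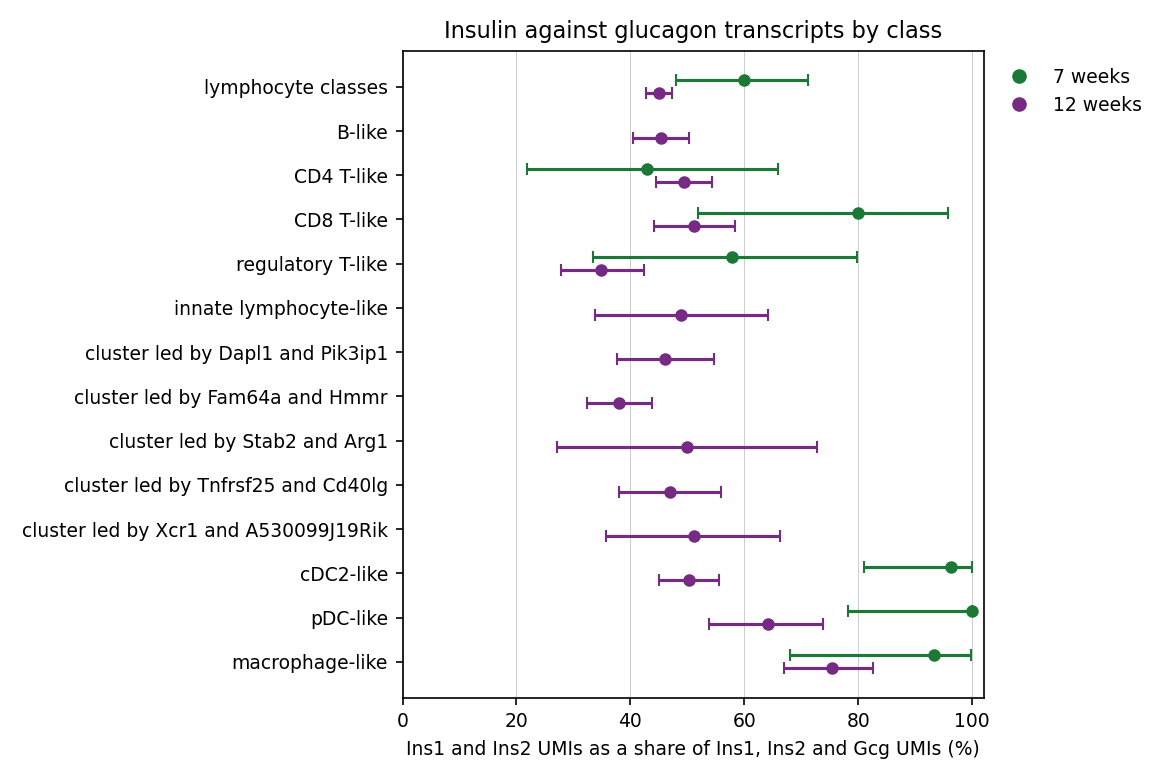
Ins1 and Ins2 UMIs as a share of Ins1, Ins2 and Gcg UMIs in classes with 10 or more cells in both libraries, where the class had 10 or more such UMIs; bars are exact binomial 95% intervals. Macrophage-like (75.4%) and pDC-like cells (64.2%) lie right of the lymphocyte classes (45.0%) at 12 weeks, and regulatory T-like cells (34.8%) lie left.

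The makeup of the hormone UMIs differed between the libraries even in lymphocytes. At 7 weeks Sst made up 41.2% of the lymphocytes' 199 UMIs (34.3% to 48.4%), Iapp 15.6%, Gcg 15.1%, Ins2 12.1% and Ins1 10.6%. At 12 weeks Gcg made up 47.8% of 2089 (45.7% to 50.0%), Ins2 28.8%, Ins1 10.4%, Iapp 6.22% and Sst 4.69%. The leading gene was thus the one that led the endocrine-like barcodes of the same library, Sst in the only one at 7 weeks and Gcg in 4 of 5 at 12 weeks. Of the insulin UMIs in lymphocytes Ins1 was 46.7% at 7 weeks (31.7% to 62.1%) and 26.6% at 12 weeks (23.6% to 29.8%). In macrophage-like cells at 12 weeks it was 24.2%, with an interval that overlapped that of lymphocytes. In the 5 endocrine-like barcodes of that library together it was 35.4%, with an interval from 34.8% that lay above that of lymphocytes.

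**Figure D4:**
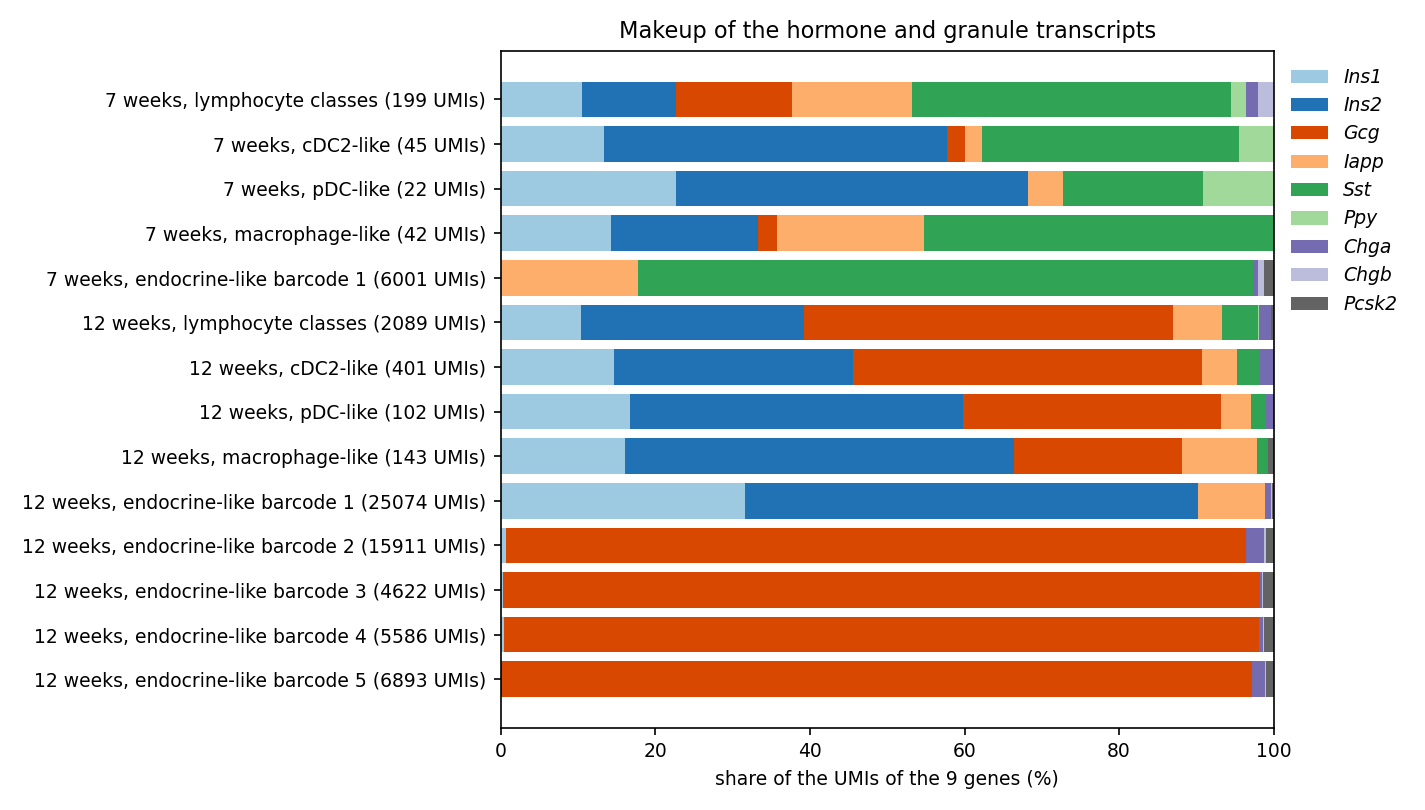
Share of each gene in the UMIs of the 9 genes, for 4 classes and each endocrine-like barcode of both libraries, with the number of UMIs in brackets. Sst (green) takes 41.2% of the lymphocyte total at 7 weeks and 79.5% of the endocrine-like barcode there, while Gcg (orange) takes 47.8% of the lymphocyte total at 12 weeks and over 95% of 4 endocrine-like barcodes.

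The endocrine-like barcodes were those with over 2% of their UMIs from the endocrine list (the 9 genes and 41 others), a threshold on the values described, so their levels are a description only. All were far past it: the lowest stood at 29.8%, and the nearest barcodes below the threshold were at 1.78%, 1.05% and 0.490%. Each had few Ptprc UMIs (0 to 5), 0 Cd3e, at most 1 Cd79a and at most 4 C1qa, and at most 15 acinar UMIs.

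At 12 weeks the first, with 37542 UMIs, was beta cell-like in its genes. It held 7913 UMIs of Ins1, 14697 of Ins2, 2193 of Iapp, 193 of Chga, 34 of Chgb, 40 of Pcsk2 and 4 of Gcg. G6pc2 (6 UMIs), Slc30a8, the granule zinc transporter (4), Ucn3, the urocortin of mature beta cells (3), and Slc2a2, the beta cell glucose transporter (2), were detected too. Of the 6 endocrine-like barcodes it alone had Slc2a2 or Ucn3.

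The other 4 endocrine-like barcodes of that library were led by Gcg. The largest, with 42078 UMIs, held 15232 of Gcg, 370 of Chga, 159 of Pcsk2, 99 of Ins1 and 1165 of Ttr, the transthyretin gene that alpha cells express strongly. The other 3 held 4525, 5456 and 6688 UMIs of Gcg and 72, 86 and 110 of Ttr, in totals of 12757, 15648 and 24162 UMIs. Ins2 ran from 1 to 6 UMIs across these 4. Their Gcg made up 95.7% to 97.9% of the UMIs of the 9 genes.

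The only endocrine-like barcode at 7 weeks was led by somatostatin. Of its 22082 UMIs it held 4771 of Sst, 1068 of Iapp, 72 of Pcsk2, 49 of Chgb, 41 of Chga, 94 of Scg2, 175 of Pyy, the peptide YY gene, and 6 of Hhex, a regulator of delta cells. Ins1, Ins2 and Gcg had 0 UMIs in it, although all 3 were found in immune barcodes of the same library.

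**Figure D5:**
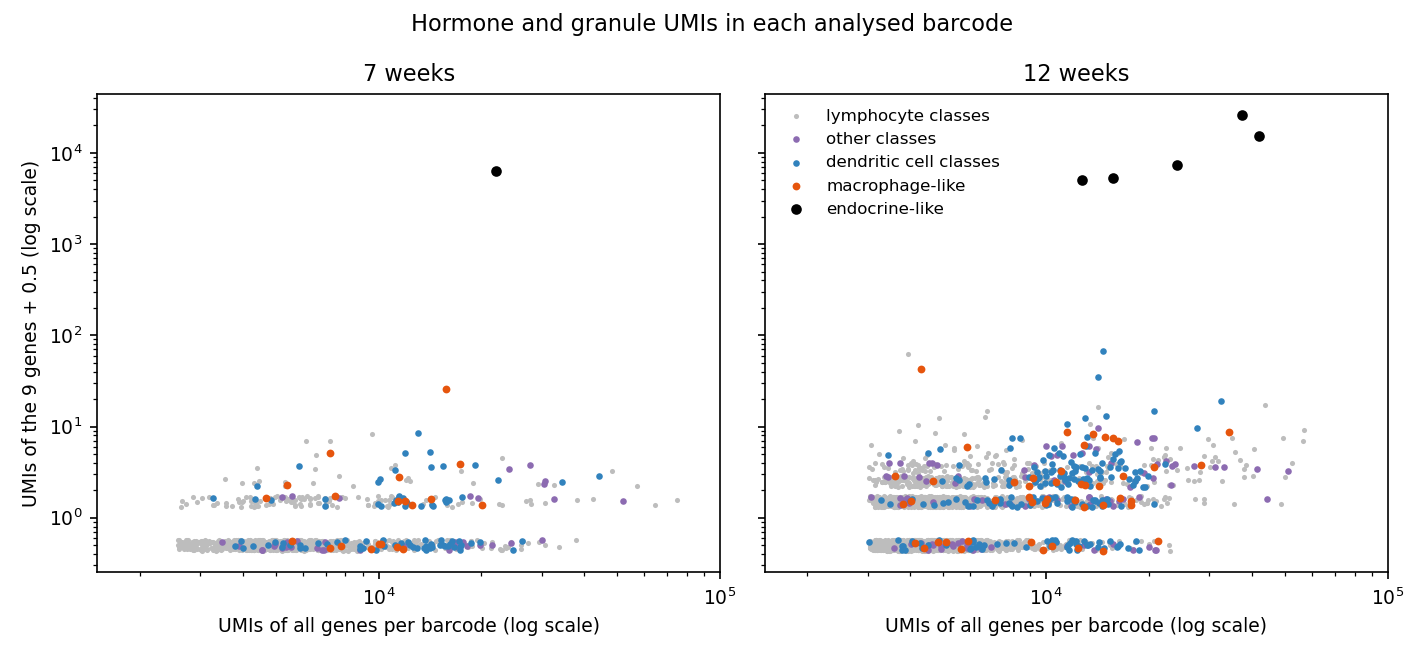
UMIs of the 9 genes (0.5 added, with slight vertical scatter so that points do not hide each other) against all UMIs of each analysed barcode, both on log axes. The endocrine-like barcodes (black) hold 4622 to 25074 of these UMIs at 12 weeks and 6001 at 7 weeks, far above all immune barcodes, whose highest is 71.

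Between the endocrine-like barcodes and the rest lay a few immune barcodes with many hormone UMIs. Of the immune barcodes, 1 at 7 weeks and 15 at 12 weeks held 10 or more UMIs of the 9 genes, 24 UMIs (7.41% of the immune total) and 359 (12.3%). At 12 weeks 10 of the 15 were led by an insulin gene, 4 by Gcg and 1 by Sst, and 6 of the 15 had no Gcg UMI at all. These were listed after their values had been seen and are described only.

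In several the hormone UMIs came from genes of 1 islet cell type. The Sst-led CD4 T-like barcode (3934 UMIs in all) held 48 of Sst, 18 of Iapp and 3 of Pyy with no insulin or glucagon UMI, and had 1 Ptprc and 0 Cd3e UMIs. A macrophage-like barcode of 4297 UMIs held 28 of Ins2, 11 of Ins1, 3 of Gcg and 2 of Iapp, with 148 of the myeloid gene Lyz2, 7 of Ptprc and 0 of C1qa. A cDC2-like barcode of 14686 UMIs held 71 of Gcg and none of the other 8 genes, with 0 Ptprc. Another cDC2-like barcode held 24 of Ins2, 7 of Ins1 and 2 of Iapp with 0 of Gcg and 10 of Ptprc. At 7 weeks the macrophage-like barcode with most held 13 of Sst, 4 of Iapp, 4 of Ins2 and 3 of Ins1, with 8 of C1qa and 70 of Lyz2. Whether these barcodes held more than 1 cell was not tested. Scrublet marked only 2 and 22 barcodes as doublets, and 13 and 10 immune barcodes still held markers of more than 1 class.

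Most lymphocytes with a hormone UMI had a single one. At 7 weeks 811 of 958 had 0, 120 had 1, 27 had 2 or more and the highest had 8. At 12 weeks 1179 of 2410 had 0, 788 had 1, 443 had 2 or more and 7 had 10 or more. The share with a UMI was 15.3% (13.1% to 17.8%) and 51.1% (49.1% to 53.1%), and in macrophage-like cells 60.0% (36.1% to 80.9%) and 74.5% (59.7% to 86.1%).

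Such shares depend on depth, which was greater in macrophage-like cells (medians of 10736 and 10671 UMIs against 5403.5 and 4743 in lymphocytes). With every cell thinned to 2000 UMIs, leaving none out, 6.58% and 24.8% of lymphocytes and 10.0% and 29.8% of macrophage-like cells held a UMI of the 9 genes, and the intervals of the pairs overlapped. For Ins2 alone at 12 weeks the thinned shares were 7.88% in lymphocytes (6.84% to 9.03%), 9.12% in B-like (7.01% to 11.6%), 17.0% in macrophage-like (7.65% to 30.8%), 15.1% in pDC-like and 10.5% in cDC2-like cells. B-like cells make no insulin, and no other class lay above them without overlap. At 47 macrophage-like cells a difference in share was not detectable. Whether a UMI of these genes came from expression by the cell was not tested. Unthinned, Ins2 was found in 17.8% of B-like, 44.7% of macrophage-like, 41.5% of pDC-like and 35.8% of cDC2-like cells.

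The scale also matters for classes of different depth. In lymphocytes at 12 weeks, split into 4 equal groups from the shallowest to the deepest cells (median 3557, 4324, 5283 and 8579 UMIs), the 9 genes had 0.687, 0.681, 0.718 and 1.38 UMIs per barcode and 1.95, 1.57, 1.35 and 1.22 per 10000. The level per barcode was thus highest, and the level per 10000 lowest, in the deepest group. At 7 weeks the groups had 0.108, 0.134, 0.229 and 0.360 per barcode and 0.311, 0.277, 0.370 and 0.261 per 10000. Counted per barcode, macrophage-like cells held 10.1 times the lymphocyte number at 7 weeks (2.10 against 0.208) and 3.51 times at 12 weeks (3.04 against 0.867). The Gcg ratio at 12 weeks was then 1.59 (1.08 to 2.27), on the other side of 1 from the ratio per 10000 of 0.843. The Ins2 ratio was above 1 on both scales, 6.14 and 3.26. How depth bears on the class differences was not tested further.

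Of the 41 other genes of the endocrine list, which covers granule and processing genes, other peptides, beta cell function and islet regulators, 25 had a UMI in lymphocytes and 4 had at least 30. Ttr alone of these 4 was at least 2-fold higher at 12 weeks (2 and 44 UMIs, a ratio of 10.1, 2.63 to 85.8), and 0 were lower. The 3 with most UMIs were genes that immune cells may express themselves: Hhex (150 and 379 UMIs, ratio 1.16), Ero1lb, an oxidoreductase of insulin folding (58 and 205, 1.62), and Scg5, the chaperone of the Pcsk2 product (46 and 143, 1.42). The intervals of these 3 lay below that of Ins2. Against lymphocytes at 12 weeks, cDC2-like cells had Hhex of 4 measured genes of this list at least 2-fold higher and Scg5 lower, and pDC-like cells had Ero1lb and Hhex of 4 higher and Scg5 lower.

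Acinar transcripts, from the enzyme-secreting cells that surround the islets, were higher in the 12 week library, as Ins1, Ins2 and Gcg were and Sst was not. The 34 acinar genes summed to 0.547 per 10000 in lymphocytes at 7 weeks (370 UMIs) and 3.14 at 12 weeks (4635 UMIs), 5.74 times as high (5.16 to 6.40). At 7 weeks 109 of the 370 UMIs lay in 43 B-like cells, the third of 4 depth groups of that class (4.49 per 10000). The other groups of B-like cells held 5, 4 and 7. How many barcodes carried the 109 was not examined. Of 23 with at least 30 UMIs, 20 were at least 2-fold higher and 1, Try10, lower. Those with most UMIs were Ctrb1, a chymotrypsinogen (ratio 8.42, 6.32 to 11.5), the trypsinogen Try5 (2 and 707 UMIs) and the trypsinogen Prss2 (3.81, 2.93 to 5.03). Try10, Try4, Try5 and Prss2 are close copies of one another, so how reads were split between them is uncertain.

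Per 10000 UMIs the acinar sum was not higher in macrophage-like cells, where the insulin genes were. It was 0.946 times the lymphocyte level at 7 weeks (0.468 to 1.71) and 0.821 times at 12 weeks (0.689 to 0.971), while the insulin genes together were 9.89 (5.02 to 18.4) and 3.15 (2.52 to 3.90). A single barcode in each library carried much of the insulin sum, which was 6.49 (2.44 to 14.7) and 1.90 (1.42 to 2.50) times the lymphocyte level without the top cells. Single acinar genes differed from their sum. Of 22 with at least 30 UMIs at 12 weeks, Ctrl, Cela1 and Reg2 were at least 2-fold higher in macrophage-like cells, beside 13.5% of all genes. There 3 were lower, beside 30.2%. At 7 weeks 0 of 4 were higher, beside 12.7%, and 2 lower, beside 30.2%. In cDC2-like cells the acinar sum was 1.35 (1.01 to 1.77) and 0.912 (0.834 to 0.997) times the lymphocyte level. All 7 week acinar ratios to lymphocytes share a denominator that holds the 109 UMIs of the B-like group. In pDC-like cells the acinar sum was higher than in lymphocytes, 10.3 times (8.53 to 12.5) and 4.32 times (3.95 to 4.72). The kallikrein gene Klk1, singled out after its values were seen, gave 145 of the 157 and 467 of the 565 UMIs. Most acinar genes did not share this excess. At 7 weeks 2 of 5 with at least 30 UMIs were 2-fold higher, beside 14.9% of all genes, and 3 lower, beside 19.9%. At 12 weeks 2 of 23 were higher, beside 16.9%, and 5 lower, beside 21.6%. The median log2 ratios of these acinar genes were -0.44 and -0.33. At 12 weeks the macrophage-like insulin interval lay above 1 and the acinar interval below it. Per barcode both were above 1 in macrophage-like cells, the acinar sum at 1.42 and 1.55 and the insulin genes at 14.9 and 5.95. The part of acinar RNA in the hormone values was not tested. The lists for red blood cells, ducts and endothelium had 3, 2 and 1 genes with at least 30 UMIs in lymphocytes and 0 of them 2-fold higher or lower at 12 weeks, with median log2 ratios of -0.57, -0.40 and 0.21, and no stromal gene had as many UMIs. The 8 stromal genes together had 6 UMIs at 7 weeks (0.00886 per 10000) and 72 at 12 weeks (0.0487), higher at 12 weeks like the hormone and acinar sums.

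The genes whose levels went most like those of Ins2 over 22 class and library sums (classes of 30 or more cells) were mostly acinar. By Pearson correlation of log2(UMIs per 10000 + 0.05), among 9590 genes with at least 100 UMIs, they were Cpb1 (r = 0.876), Clps, Try5, Reg1, Cela3b, Sycn, Ctrb1, Psmb8, 2210010C04Rik and Dcn (0.726). Of these 10, 8 were on the acinar list. With a higher minimum of UMIs per gene 5 of the leading 10 were, and Psmb8, Tapbp, H2-T23, Haghl and Ndufb4 were on neither list. For Gcg they were Try5 (0.949), Reg1, Sycn, Cela3b and 2210010C04Rik (0.880). Ins1 and Ins2 themselves had r = 0.930, Gcg and Ins2 0.795, and Sst and Gcg -0.711. The points are sums of only 2 libraries that share their depth and preparation, so a gene that differs between the libraries in every class scores high.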

How the data were processed

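Per the submitters' processing notes, the authors made the deposited UMI counts per gene and barcode with Cell Ranger 1.3.1 on mm10. The sources used here do not give how cells were called or which annotation was used. Under 200 genes or over 10% mitochondrial UMIs removed 4 and 8 barcodes, and those that Scrublet marked per library were removed too (2, or 0.180%, and 22, or 0.785%). Clustering used scanpy 1.11.5 in Python 3.11.15: cells scaled to 10000 UMIs and log-transformed, 2000 variable genes (endocrine and acinar lists left out), 30 components, 15 neighbours and Leiden resolution 1.0. A cluster took a name when 2 or more markers of 1 type, and of no other as many, were among its 10 leading genes and 3 were each in 10% of its cells. Unnamed clusters with Cd3e or Cd79a over 200 CPM and C1qa and Lyz2 under 100 counted as lymphocytes.

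Barcodes with over 2% of UMIs from endocrine, acinar, stromal or erythroid genes were set aside. Raw counts were summed per class and library, with no test. The ratio intervals were checked only on counts simulated from the Poisson model they assume, for genes with many UMIs over whole libraries. That check cannot speak for small sums or for UMIs bunched in single barcodes. A ratio was given where both sums held at least 10 UMIs together. The genes, gene lists and naming limits were chosen with earlier results of these data known. Named genes were the 9 members, the 3 of each list with most UMIs in lymphocytes, the 10 most like Ins2 and the 5 most like Gcg. Alternatives covered scale, thresholds, clustering, gates, doublets and filters.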

Additional observations from a re-analysis of the deposited data

How the results depend on the processing

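No paired analysis was possible because each age has 1 library, and no replicate could be left out. Under 15 alternatives the lymphocyte ratio of 12 over 7 weeks ran from 4.17 to 4.98 for the sum, 8.19 to 14.5 for Ins2 and 13.2 to 18.8 for Gcg. At 12 weeks the macrophage-like ratio was above 1 throughout for Ins1, Ins2 and Iapp. The interval of Ins1 included 1 without the top cells (1.51, 0.767 to 2.69), at endocrine-like thresholds of 1% and 0.5%, with gates (1.54, 0.728 to 2.88) and without barcodes of 10 or more (1.60, 0.814 to 2.86), and that of Iapp with gates (2.14, 0.906 to 4.34). The ratio lay on both sides of 1 for Gcg (0.767 to 1.59) and Sst (0.358 to 1.16). Macrophage-like over lymphocyte sums moved beyond their interval to 10.1 (7 weeks) and 3.51 (12 weeks) per barcode, to 3.23 and 1.34 without the top cell of each class, to 9.65 and 1.22 with marker gates, and to 3.11 and 1.39 without barcodes of 10 or more of these UMIs. At 12 weeks the ratio was 2.65 as a mean over cells and 1.34 with endocrine-like set at over 1% or over 0.5%. Dendritic over lymphocyte sums joined cDC2-like and pDC-like cells and left out the cluster led by Xcr1. These ratios (2.04 and 1.52) moved to 3.58 and 2.70 per barcode. At 12 weeks they moved to 1.36 as a mean over cells, 1.36 without the top cells and 1.17 without barcodes of 10 or more. With gates, which could also count cells with Xcr1 as dendritic, the 12 week ratio was 1.23. Shares of cells with a UMI fell with thinning, in lymphocytes to 3.76% and 13.3% at 1000 UMIs and 6.58% and 24.8% at 2000, and in macrophage-like cells to 10.0% and 8.51% at 1000 and 10.0% and 29.8% at 2000. With a higher minimum of UMIs per gene, 6 of the 10 genes most like Ins2 were shared with the list above. The causes of these shifts were not tested. The alternatives without barcodes of 10 or more UMIs and without the cluster led by Fam64a and Hmmr were added after seeing the data. Of the single gene ratios under an alternative, 20 moved beyond their interval and 160 did not. Macrophage-like results rest on 20 and 47 cells.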
